A study of Arabidopsis thaliana with 18 samples.

Results

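UDP-glycosyltransferases (UGTs) are the plant enzymes that move a sugar, mostly glucose, from a UDP-sugar onto small molecules such as phenylpropanoids, flavonoids, hormones and toxins. The sugar makes the acceptor more soluble and usually less active, and many of the products are stored in the vacuole. In Arabidopsis thaliana the family is large, and several of its genes lie side by side as copies of each other, named by a family number, a subfamily letter and a gene number. The members followed here are the genes whose annotated symbol has that form and whose probe set, the group of array probes read out as 1 value, names no other gene. UGT78D2 and UGT75C1 were left out by the same rule. It gave 46 genes with 1 probe set each, of 13356 single genes named among 22746 probe sets. The 46 genes fall in 11 families and 21 subfamilies, all 46 probe sets carry the plain suffix of sets not marked as shared between genes, and each symbol matched the RefSeq gene table of TAIR10.1.

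Whole seedlings were grown for 10 days on MS agar plates under continuous cool-white light (80 micromoles per second and square metre) after 3 days at 4 °C, at either 16 °C or 23 °C throughout. The genotypes were wild-type Columbia (WT) and the single mutants elf3-7 and tfl1-1, which carry 1 allele each of the clock gene ELF3 and the flowering repressor TFL1. Each of the 6 groups had 3 biological replicates, A, B and C, on 18 Affymetrix arrays. The design asks how temperature changes expression, how each mutant differs from WT, and whether the mutants change the temperature response. The annotation used here names ELF3 and TFL1 for none of the probe sets, and the mutated genes could not serve as a check of the genotypes.

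Values are the authors' log2 expression values, made with RMA, which corrects background, equalises the arrays and sums the probes of a set. Differences keep that log2 scale and carry the fitted standard error (SE), with 3 arrays in each group. A gene was called at an adjusted p under 0.05, from limma with adjustment over all 22746 probe sets. Arrays of 1 group correlated at 0.954 to 0.995. Replicate C stood apart from A and B in all 6 groups. Its Bacillus control transcripts averaged 4.81 to 6.67 against 3.14 to 3.28, and the excess of 3′ over 5′ signal of actin and GAPDH was 1.78 to 2.74 against 1.11 to 1.63, highest in replicate C of tfl1-1 at 23 °C. Differences are therefore also given as the mean of A and B and as C alone. Of the green tissue markers, 3 of 12 were measured (LHCB4.1, LHCB4.2 and RCA), with group means of 12.94 to 13.16. Of the root markers, 3 of 6 were measured (EXPA7, EXPA18 and PYK10), and of the 6 flower and 4 seed markers none was. The values describe whole seedlings, in which fewer cells of a type and less RNA per cell cannot be told apart.

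Mean signal over the 18 arrays ran from 3.03 for UGT73C2 to 10.23 for UGT88A1, with a median of 5.21 over the members and 5.6 over all probe sets. The 5 highest were UGT88A1, UGT74D1 (8.54), UGT71C4 (8.52), UGT74B1 (8.47) and UGT78D1 (8.41). The 5 lowest were UGT73C2, UGT76E1 (3.23), UGT84B2 (3.34), UGT84B1 (3.46) and UGT71B8 (3.49). Probe sets differ in brightness for reasons other than transcript level, so these means do not rank the genes by expression. No filter on low values was applied. Of the 46, 24 had a mean of at least 5, and 16 lay below 4.36, the brightest mean of a Bacillus control probe set in replicates A and B, so their differences are less certain. At least 1 group mean lay below that level for 22 members, 5 of the 9 called for temperature among them.

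At 23 °C against 16 °C, 9 of the 46 UGT genes were called in at least 1 genotype and 37 in none. These calls come from the fit without the replicate letter as a block. Shares of all probe sets are given below for each genotype only. In WT, UGT84A3, UGT85A5 and UGT88A1 rose and UGT71C1 and UGT71C3 fell. In elf3-7, UGT76C1, UGT84A3, UGT85A5 and UGT88A1 rose and UGT72B3 and UGT76B1 fell. In tfl1-1, UGT85A5 and UGT88A1 rose and UGT76B1 and UGT76D1 fell. All 9 genes had a difference of the same sign in the 3 genotypes, whether called or not. The 9 were chosen by these same differences, and no share over all called probe sets was set beside this. It therefore gives no result particular to the UGT family. With the block, further genes that are not among the 9 passed. These were UGT84A1 in WT (adjusted p = 0.045), UGT84A4 in elf3-7 (adjusted p = 0.0215) and UGT71C2 in tfl1-1 (adjusted p = 0.0277).

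The counts can be read against the whole array. In WT, 5 of 46 members (10.9%) were called, against 6.81% of all probe sets. That is 3 higher against 2.83% and 2 lower against 3.98%. In elf3-7, 6 of 46 (13%) were called, against 4.87%, with 4 higher (2.55%) and 2 lower (2.32%). In tfl1-1, 4 of 46 (8.7%) were called, against 9.16%, with 2 higher (3.98%) and 2 lower (5.18%). With the replicate letter as a block, 7 of 46 members (15.2%) were called in each of the 3 genotypes. For all probe sets the shares were 13.9%, 12.8% and 17.6%, so that the members' share lay near that of the array. The median difference of the members was 0.08, -0.01 and -0.04 in WT, elf3-7 and tfl1-1, and that of all probe sets 0.05, 0.03 and 0.04. The 3 higher genes UGT84A3, UGT85A5 and UGT88A1 had no overlap between their 3 and 3 arrays in any genotype, where 3.23% of all probe sets lay higher in that way. UGT71C3 and UGT76B1 were lower without overlap in all 3 genotypes, where 3.87% of all probe sets were.

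**Figure D1:**
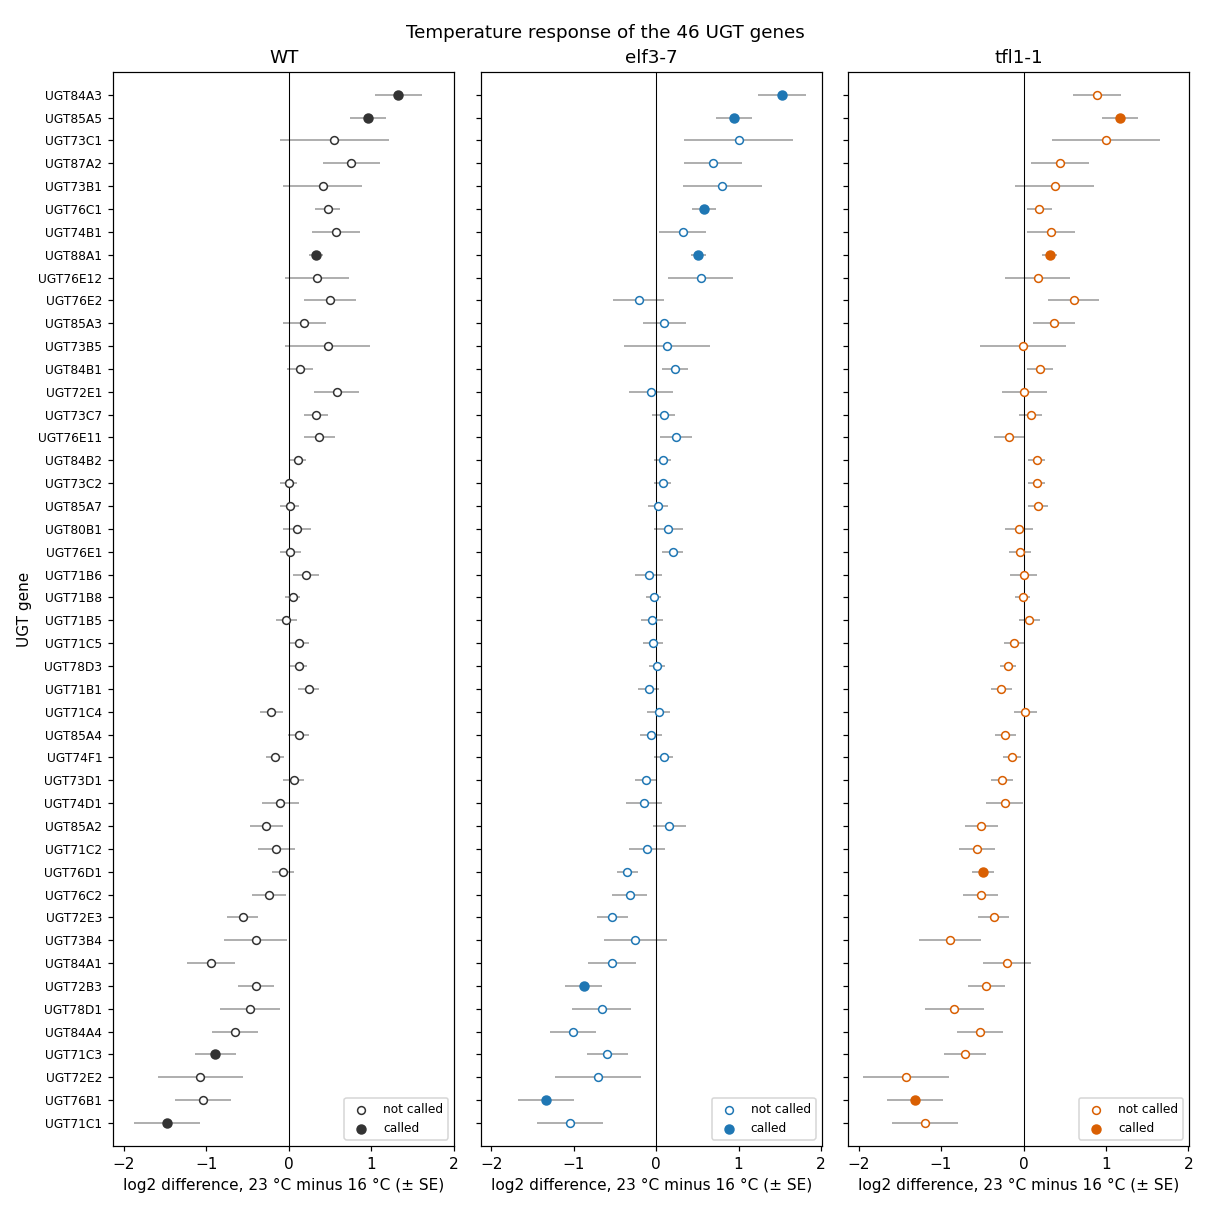
Log2 difference between 23 °C and 16 °C (x axis, ± SE) for each of the 46 UGT genes (y axis, ordered by the mean over the genotypes) in WT, elf3-7 and tfl1-1, with filled points for called genes. UGT84A3 and UGT85A5 lie at the top and UGT71C1 and UGT76B1 at the bottom, and most members lie near 0.

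UGT84A3 (AT4G15490) belongs to the UGT84A enzymes, which make glucose esters of hydroxycinnamic acids such as sinapate and ferulate. Its WT values, in the order A, B, C used throughout, were 6.71, 6.29 and 6.99 at 16 °C and 8.28, 8.25 and 7.44 at 23 °C. In elf3-7 they were 6.70, 6.03 and 7.10 at 16 °C and 8.35, 7.76 and 8.32 at 23 °C. The 23 °C arrays lay above the 16 °C arrays in both genotypes. The rise was 1.33 ± 0.29 in WT (2.51-fold, adjusted p = 0.0163) and 1.53 ± 0.29 in elf3-7 (2.89-fold, adjusted p = 0.0107). In tfl1-1 the arrays read 7.01, 7.35 and 7.55 at 16 °C and 8.12, 8.06 and 8.40 at 23 °C, again without overlap. The tfl1-1 difference of 0.89 ± 0.29 did not pass (adjusted p = 0.0648). The 16 °C arrays of tfl1-1 all lay above those of WT, by 0.64 ± 0.29 on average, which did not pass either (adjusted p = 0.654). In WT the difference was 1.77 in replicates A and B and 0.44 in C, whereas elf3-7 gave 1.69 and 1.22, and tfl1-1 0.91 and 0.86. The WT call was lost without replicate B at 16 °C (1.14, adjusted p = 0.0828) or without A or B at 23 °C (1.18 and 1.19, adjusted p = 0.0767 and 0.0591). The elf3-7 call was lost without A or C at 23 °C (1.43 and 1.44, adjusted p = 0.0572 and 0.0552).

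The adjoining genes UGT84A1 (AT4G15480) and UGT84A4 (AT4G15500), of the same enzyme group, lay below 0 in every genotype where UGT84A3 lay above it. UGT84A1 in WT read 5.62, 5.47 and 5.89 at 16 °C and 4.64, 4.95 and 4.57 at 23 °C, without overlap. Its differences were -0.94 ± 0.29 in WT (adjusted p = 0.0627), -0.53 in elf3-7 and -0.20 in tfl1-1. UGT84A4 in elf3-7 read 6.14, 6.32 and 5.79 at 16 °C and 4.87, 5.06 and 5.29 at 23 °C, also without overlap. Its differences were -0.65 in WT, -1.01 ± 0.28 in elf3-7 (adjusted p = 0.0518) and -0.53 in tfl1-1. Neither gene was called, but with the replicate letter as a block UGT84A1 passed in WT (adjusted p = 0.045) and UGT84A4 in elf3-7 (adjusted p = 0.0215). In tfl1-1 at 23 °C, both genes were highest in replicate C. UGT84A1 read 4.71, 4.74 and 6.0 there, and UGT84A4 4.58, 4.44 and 5.80. Neighbouring UGT genes resemble each other in sequence, and cross-hybridisation between them was not tested.

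**Figure D2:**
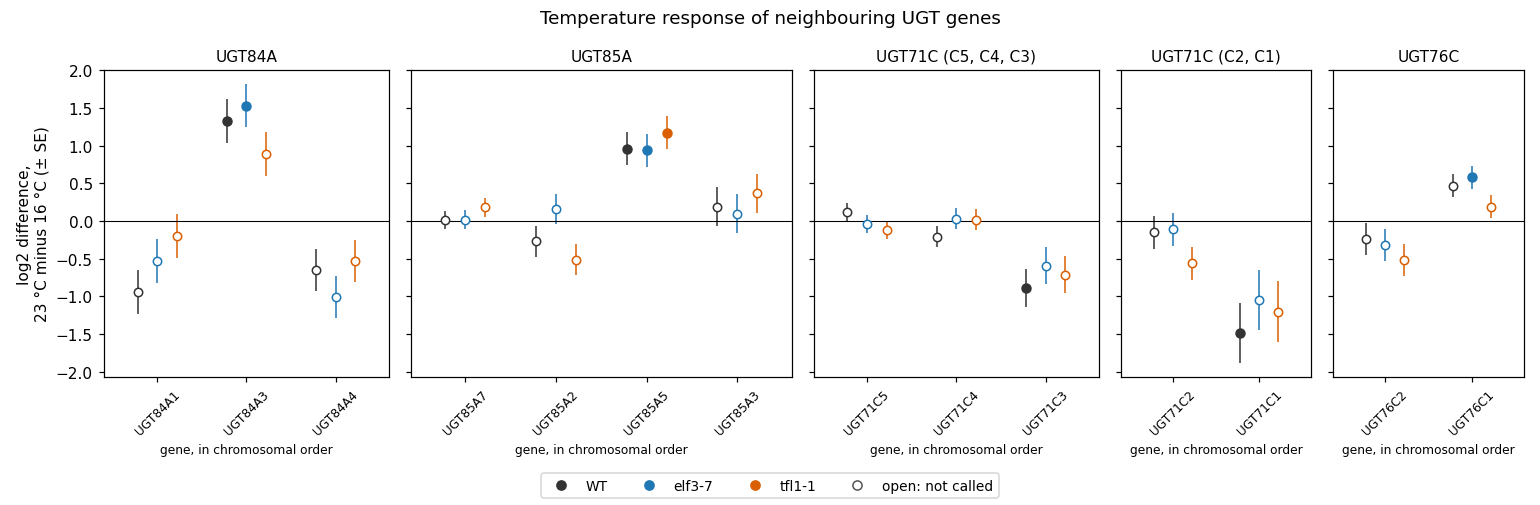
Log2 difference between 23 °C and 16 °C (y axis, ± SE) for the 5 groups of neighbouring UGT genes that hold a called member, in chromosomal order (x axis), with filled points for called genes. UGT84A3, UGT85A5, UGT71C3, UGT71C1 and UGT76C1 were each the 1 gene of their group called without the replicate letter as a block.

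The other phenylpropanoid UGTs mostly lay at or below 0. UGT71C1 (AT2G29750), which glucosylates flavonols and caffeate in vitro, fell in WT by 1.48 on the log2 scale (SE 0.40, adjusted p = 0.038). WT arrays read 5.72, 5.11 and 4.91 at 16 °C and 3.82, 3.76 and 3.71 at 23 °C. The 23 °C arrays thus lay close together, more than 1 unit below all 16 °C arrays. All 3 also lay below the 4.36 of the brightest Bacillus control, where the size of a difference is uncertain, so no fold is given. In elf3-7 the values were 5.55, 6.29 and 4.62 at 16 °C and 4.41, 4.94 and 3.95 at 23 °C, which overlap, for a difference of -1.05 (adjusted p = 0.131). In tfl1-1 they were 5.57, 5.49 and 5.05 against 3.66, 3.88 and 4.97, for a difference of -1.20 (adjusted p = 0.0707). Replicates A and B of tfl1-1 gave -1.76 and C -0.08. Leaving out any 1 of the 6 WT arrays ended the WT call, with values of -1.25 to -1.65 and adjusted p of 0.073 to 0.109.

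UGT72B3 (AT1G01420), a relative of the monolignol and xenobiotic enzyme UGT72B1, fell in elf3-7 by 0.88 on the log2 scale (SE 0.22, adjusted p = 0.037). Its elf3-7 arrays read 6.55, 6.72 and 6.19 at 16 °C and 5.94, 5.62 and 5.27 at 23 °C, with no overlap. The difference was -0.40 in WT (adjusted p = 0.319) and -0.45 in tfl1-1 (adjusted p = 0.229), and it was not shown to differ between genotypes. The elf3-7 call was kept without replicate C at 16 °C and lost without any 1 of the other 5 arrays (-0.71 to -1.04, adjusted p = 0.0558 to 0.156).

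The UGT72E enzymes glucosylate the monolignols, the building blocks of lignin, and their aldehydes. None was called. UGT72E2 (AT5G66690) read 7.11, 7.58 and 7.29 at 16 °C and 5.88, 6.52 and 6.37 at 23 °C in WT, without overlap, for -1.07 ± 0.52 (adjusted p = 0.238). In tfl1-1 it read 7.34, 7.20 and 7.34 at 16 °C and 4.98, 5.0 and 7.64 at 23 °C. Replicates A and B of tfl1-1 at 23 °C were thus far below all 16 °C arrays, while C was above them. The tfl1-1 difference over all arrays was -1.42 ± 0.52 (adjusted p = 0.101). It was -2.30 with an adjusted p of 0.000159 without replicate C at 23 °C, the array with the highest 3′ excess. UGT72E3 (AT5G26310) lay at -0.56, -0.53 and -0.36 in WT, elf3-7 and tfl1-1, and UGT72E1 (AT3G50740) at 0.58, -0.06 and 0.01. UGT73C7 (AT3G53160), a hydroxycinnamate enzyme, lay at 0.33, 0.09 and 0.09.

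Of the 9 phenylpropanoid members, 1 rose and 1 fell in WT, 1 rose and 1 fell in elf3-7, and 0 were called in tfl1-1. On the whole array 6.81%, 4.87% and 9.16% of probe sets were called in these genotypes. The median differences of the 9 were -0.56, -0.53 and -0.36, beside 0.05, 0.03 and 0.04 over all probe sets. The role groups were formed after the values were seen, and no test was made of them.

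**Figure D3:**
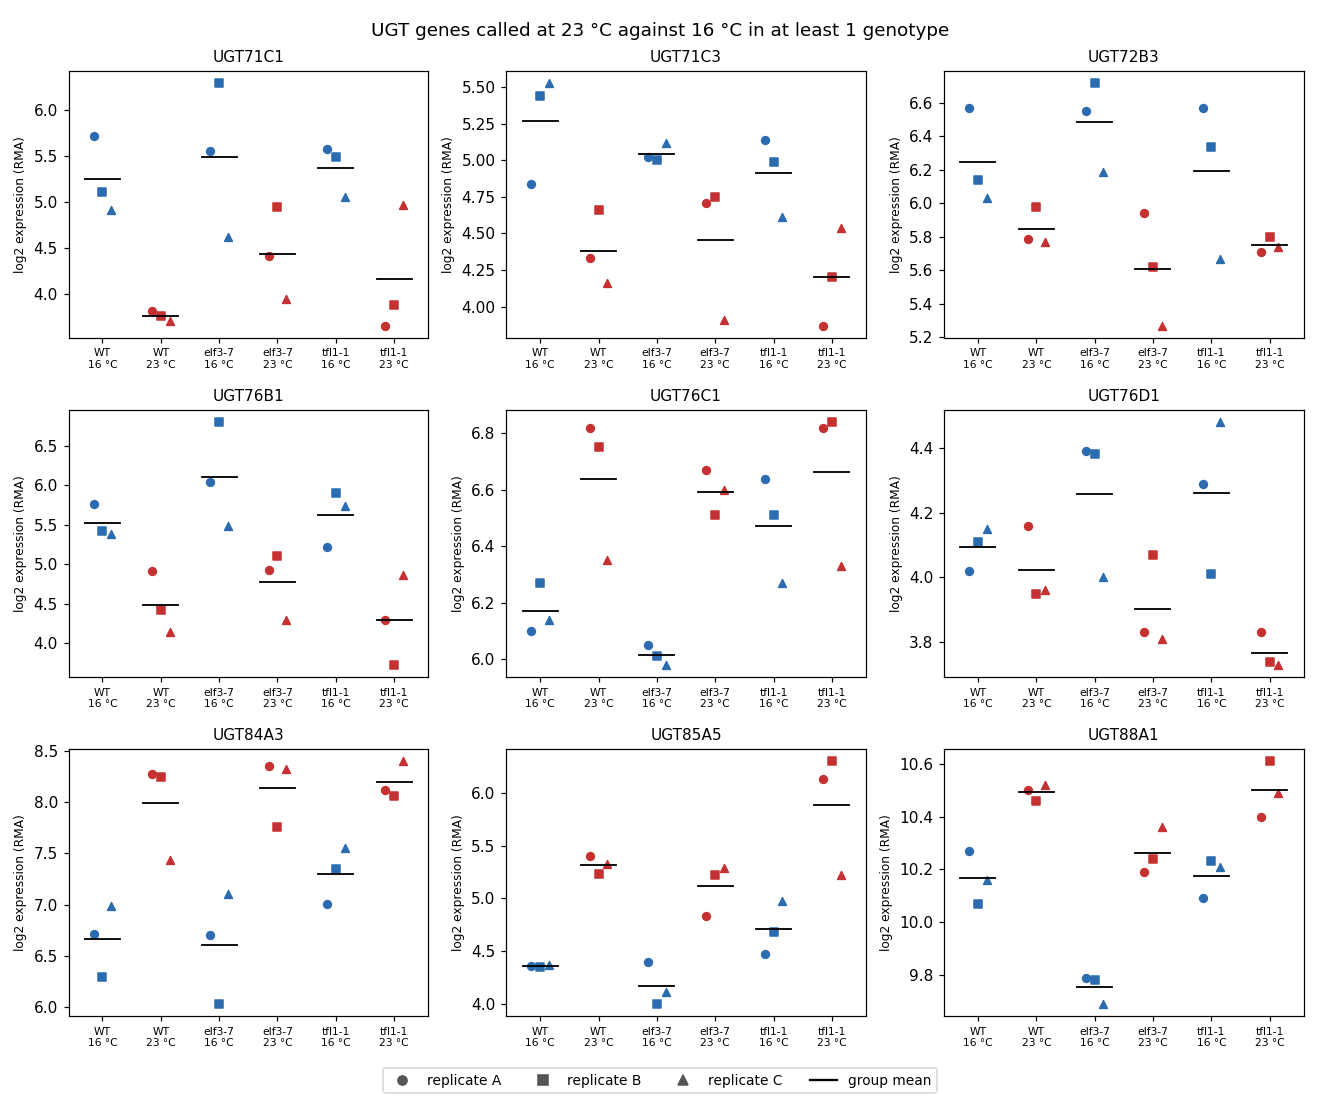
Log2 expression of the 9 called UGT genes (1 panel each, y axes differ) in each of the 18 arrays, by group (x axis, blue for 16 °C and red for 23 °C), with replicates A, B and C as circles, squares and triangles and group means as bars. UGT84A3, UGT85A5 and UGT88A1 lie higher at 23 °C in each genotype without overlap, and replicate C of tfl1-1 at 23 °C is the lowest of its group for UGT85A5 and the highest for UGT71C1.

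UGT88A1 (AT3G16520), which glucosylates flavonols in vitro, was the brightest member and rose in all 3 genotypes by a small amount. WT arrays read 10.27, 10.07 and 10.16 at 16 °C and 10.50, 10.46 and 10.52 at 23 °C. In elf3-7 they read 9.79, 9.78 and 9.69 against 10.19, 10.24 and 10.36, and in tfl1-1 10.09, 10.23 and 10.21 against 10.40, 10.61 and 10.49. No 16 °C array reached a 23 °C array of its genotype. The rise was 0.33 ± 0.09 in WT (1.26-fold, adjusted p = 0.0364), 0.51 ± 0.09 in elf3-7 (1.43-fold, adjusted p = 0.00622) and 0.32 ± 0.09 in tfl1-1 (1.25-fold, adjusted p = 0.0342). Replicates A and B gave 0.32, 0.43 and 0.34, and C alone 0.36, 0.67 and 0.28. All 3 calls were lost in replicates A and B alone (adjusted p = 0.124, 0.0749 and 0.0729) and with only the compared groups in the fit (adjusted p = 0.143, 0.0572 and 0.141). The elf3-7 call was kept without any 1 array. The WT call was kept only without replicate A at 16 °C (lost for the other 5 at 0.28 to 0.35, adjusted p = 0.0702 to 0.15), and the tfl1-1 call only without C at 23 °C (lost for the other 5 at 0.27 to 0.37, adjusted p = 0.0599 to 0.145).

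The other flavonoid members were not called. UGT78D1 (AT1G30530), the flavonol 3-O-rhamnosyltransferase, lay below 0 in each genotype, at -0.47 ± 0.36 in WT, -0.66 in elf3-7 and -0.84 in tfl1-1 (adjusted p = 0.48, 0.312 and 0.16). Its tfl1-1 arrays read 8.74, 8.16 and 8.60 at 16 °C and 7.07, 7.36 and 8.54 at 23 °C. Replicate C at 23 °C was thus again at the 16 °C level, and without it the tfl1-1 difference was -1.29 (adjusted p = 0.0119). UGT78D3 (AT5G17030), a flavonol arabinosyltransferase, was dim and lay at 0.12, 0.01 and -0.19.

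Several UGTs act on salicylic acid and other compounds of plant defence, and 3 of them were called in at least 1 genotype, UGT76B1, UGT71C3 and UGT76D1. UGT76B1 (AT3G11340) glucosylates isoleucic acid, salicylic acid and N-hydroxypipecolic acid. Its arrays in WT read 5.76, 5.42 and 5.39 at 16 °C and 4.91, 4.42 and 4.14 at 23 °C. In elf3-7 they read 6.04, 6.80 and 5.49 against 4.93, 5.11 and 4.30, and in tfl1-1 5.22, 5.90 and 5.74 against 4.29, 3.73 and 4.87. The temperatures did not overlap in any genotype. UGT76B1 fell by 1.33 on the log2 scale in elf3-7 (SE 0.34, 2.51-fold, adjusted p = 0.0398) and fell by 1.32 in tfl1-1 (SE 0.34, adjusted p = 0.0277), where the 23 °C mean of 4.30 lay below the 4.36 of the brightest Bacillus control. The WT difference was -1.04 ± 0.34 (2.05-fold, adjusted p = 0.0853). Replicate C at 23 °C also lay below that level in WT (4.14) and elf3-7 (4.30), so the folds of these genotypes are uncertain. The elf3-7 call was kept without replicate C at 16 °C or B at 23 °C and lost without any 1 of the other 4 arrays (-0.98 to -1.40, adjusted p = 0.0967 to 0.161). The tfl1-1 call was kept only without replicate C at 23 °C (-1.61, adjusted p = 0.00612) and lost for the other 5 (-1.04 to -1.52, adjusted p = 0.0532 to 0.125).

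UGT71C3 (AT1G07260), which glucosylates methyl salicylate, fell in WT by 0.89 on the log2 scale (SE 0.25, adjusted p = 0.0429). WT arrays read 4.84, 5.44 and 5.53 at 16 °C and 4.33, 4.66 and 4.16 at 23 °C. In elf3-7 they read 5.02, 5.0 and 5.12 against 4.71, 4.75 and 3.91, and in tfl1-1 5.14, 4.99 and 4.61 against 3.87, 4.2 and 4.54. The temperatures did not overlap in any genotype, although the gap in tfl1-1 was narrow. The 23 °C mean of tfl1-1, 4.2, lay below the Bacillus level of 4.36. In WT at 23 °C, replicates A and C (4.33 and 4.16) also lay below it, so no fold is given. The differences in elf3-7 and tfl1-1 were -0.59 (adjusted p = 0.169) and -0.71 (adjusted p = 0.0833). The WT difference was -0.65 in replicates A and B and -1.38 in C, and the call was lost in A and B alone (adjusted p = 0.0672). It was kept without replicate A at 16 °C and lost without any 1 of the other 5 arrays (-0.76 to -1.03, adjusted p = 0.0552 to 0.16).

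UGT76D1 (AT2G26480), an enzyme of dihydroxybenzoic acids, was dim and changed only slightly. It fell in tfl1-1 by 0.49 on the log2 scale (SE 0.13, adjusted p = 0.0329), from 4.29, 4.01 and 4.48 at 16 °C to 3.83, 3.74 and 3.73 at 23 °C. These values lie around the 4.36 of the brightest Bacillus control. In WT the difference was -0.07 and in elf3-7 -0.35 (adjusted p = 0.797 and 0.134). The call was lost in replicates A and B alone (-0.36, adjusted p = 0.0916). It was also lost without A or C at 16 °C or A or B at 23 °C (-0.38 to -0.52, adjusted p = 0.084 to 0.122).

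The remaining defence members were not called. UGT73B4 (AT2G15490) and UGT73B5 (AT2G15480) are adjoining genes known for their response to pathogens and oxidative stress. UGT73B4 lay at -0.40, -0.25 and -0.89 in WT, elf3-7 and tfl1-1, and UGT73B5 at 0.47, 0.13 and -0.01. UGT73B5 varied widely among replicates, with WT values of 6.77, 5.63 and 4.67 at 23 °C. UGT74F1 (AT2G43840), a salicylic acid glucosyltransferase, lay at -0.17, 0.09 and -0.14. Of the 6 salicylate and defence members, 0 rose in any genotype, and 1, 1 and 2 fell in WT, elf3-7 and tfl1-1. On the whole array 2.83%, 2.55% and 3.98% of probe sets were higher and 3.98%, 2.32% and 5.18% lower. With 6 members, 1 or 2 calls allow no reading against these shares.

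The mean of the 3 measured root markers was lower at 23 °C than at 16 °C in each genotype, with overlapping arrays in elf3-7. Their mean was 7.25 at 16 °C and 6.26 at 23 °C in WT, 7.66 and 6.85 in elf3-7, and 7.37 and 6.31 in tfl1-1. By array it ran from 6.85 to 8.03 against 6.16 to 6.41 in WT, from 6.72 to 8.54 against 6.38 to 7.48 in elf3-7, and from 7.10 to 7.62 against 6.11 to 6.55 in tfl1-1. None of the 3 markers was called. EXPA18, an expansin of root hairs, was furthest from 0, at -1.46 ± 0.56 in WT, -1.41 in elf3-7 and -1.57 in tfl1-1 (adjusted p = 0.133, 0.149 and 0.0907). The part of root tissue in the lower UGT values was not tested.

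Cytokinins are inactivated by N-glucosylation, which UGT76C1 (AT5G05870) and its neighbour UGT76C2 (AT5G05860) carry out. UGT76C1 rose in elf3-7 by 0.58 ± 0.15 (1.49-fold, adjusted p = 0.0392). The elf3-7 arrays read 6.05, 6.01 and 5.98 at 16 °C and 6.67, 6.51 and 6.60 at 23 °C, 2 tight groups without overlap. In WT they read 6.10, 6.27 and 6.14 against 6.82, 6.75 and 6.35, also without overlap. The WT difference was 0.47 ± 0.15 (adjusted p = 0.0717) and passed with the replicate letter as a block (adjusted p = 0.0217). In tfl1-1 the difference was 0.19 ± 0.15 (adjusted p = 0.455), with values of 6.64, 6.51 and 6.27 at 16 °C and 6.82, 6.84 and 6.33 at 23 °C. The elf3-7 call was kept without replicate B at 23 °C and lost without any 1 of the other 5 arrays (0.54 to 0.60, adjusted p = 0.0819 to 0.132).

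UGT76C2 lay below 0 in all 3 genotypes, at -0.24 in WT, -0.32 in elf3-7 and -0.52 ± 0.21 in tfl1-1 (adjusted p = 0.544, 0.397 and 0.126). Its WT arrays read 7.12, 6.90 and 6.88 at 16 °C and 6.82, 6.62 and 6.75 at 23 °C. It was not called in any comparison. UGT73C1 (AT2G36750), an O-glucosyltransferase of cytokinins that also acts on trinitrotoluene, had large differences of 0.55, 1.00 and 1.00 with an SE of 0.66. Its WT arrays ran from 3.70 to 5.6 at 16 °C and from 4.00 to 6.33 at 23 °C, a spread larger than the difference. In elf3-7 they read 3.73, 3.79 and 3.73 against 5.33, 3.83 and 5.09, without overlap (adjusted p = 0.414). These 16 °C arrays lay below the 4.36 of the brightest Bacillus control. The tfl1-1 arrays overlapped.

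UGT85A5 (AT1G22370) rose in all 3 genotypes by about 1 unit. WT arrays read 4.36, 4.35 and 4.37 at 16 °C and 5.40, 5.23 and 5.33 at 23 °C. In elf3-7 they read 4.40, 4.00 and 4.11 against 4.83, 5.22 and 5.29, and in tfl1-1 4.47, 4.68 and 4.98 against 6.13, 6.30 and 5.22. All 23 °C arrays lay above the 16 °C arrays of their genotype. The rise was 0.96 ± 0.22 in WT (adjusted p = 0.0227), 0.94 ± 0.22 in elf3-7 (adjusted p = 0.0292) and 1.17 ± 0.22 in tfl1-1 (2.25-fold, adjusted p = 0.00753). The 16 °C means of WT (4.36) and elf3-7 (4.17) lay at or below the brightest Bacillus control, so no fold is given for these. In tfl1-1, replicates A and B gave 1.64 and C gave 0.24. The tfl1-1 call was kept without any 1 array and lost with only the compared groups in the fit (adjusted p = 0.0942). The elf3-7 call was lost without any 1 of its 6 arrays (0.86 to 1.09, adjusted p = 0.0537 to 0.118). The WT call was kept without A at 16 °C or C at 23 °C and lost for the other 4 (0.92 to 1.00, adjusted p = 0.0512 to 0.0851).

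UGT85A5 lies in a run of 4 members with UGT85A7 (AT1G22340), UGT85A2 (AT1G22360) and UGT85A3 (AT1G22380), none of which was called. UGT85A7 lay at 0.01, 0.02 and 0.18 in WT, elf3-7 and tfl1-1, and UGT85A3 at 0.19, 0.10 and 0.37. UGT85A2, the brightest of the run, lay at -0.27, 0.16 and -0.51. UGT85A4 (AT1G78270), elsewhere in the genome, lay at 0.12, -0.06 and -0.22.

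Neighbours were compared along all chromosomes. With members counted as neighbours when at most 5 genes apart in the RefSeq order, 29 of the 46 fell in 12 clusters (8 of 2 genes, 3 of 3 and 1 of 4), and 17 stood alone. A called member was found in 5 of the 12 clusters, and 0 clusters held 2 or more. With the replicate letter as a block, the UGT84A cluster held 2, UGT84A3 with UGT84A1 in WT and with UGT84A4 in elf3-7. In replicates A and B alone it held 2 or more in each genotype. In tfl1-1, where the letters did not meet the rule used for pairing, UGT71C1 and UGT71C2 were both called under the block. Beside UGT71C3, UGT71C4 (AT1G07250) lay at -0.21, 0.03 and 0.02 and the abscisic acid enzyme UGT71C5 (AT1G07240) at 0.12, -0.04 and -0.12. Beside UGT71C1, UGT71C2 (AT2G29740) lay at -0.15, -0.11 and -0.56.

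UGTs of other acceptors were not called in any genotype. The abscisic acid enzymes UGT71B6, UGT71B8 and UGT71C5 lay between -0.12 and 0.21, and the auxin enzymes UGT74D1 and UGT84B1 between -0.23 and 0.23. UGT74B1 (AT1G24100), which makes the desulfoglucosinolate core, lay at 0.57, 0.32 and 0.33 (adjusted p = 0.258, 0.564 and 0.517). UGT80B1 (AT1G43620), a sterol glucosyltransferase, lay at 0.10, 0.15 and -0.05. UGT87A2 (AT2G30140), known to affect flowering time, lay at 0.76 ± 0.35, 0.69 and 0.44 (adjusted p = 0.218, 0.271 and 0.473). Its WT arrays read 7.84, 7.26 and 7.87 at 16 °C and 9.02, 8.38 and 7.82 at 23 °C, so replicate C alone gave -0.05. The 17 members given no role here had medians of 0.11, 0.08 and 0.07, and UGT85A5 was the called one among them.

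Replicate C thus differed from A and B for some members and most in tfl1-1. The temperature difference in C had the opposite sign to that in A and B for 16 of 46 members in WT, 6 in elf3-7 and 19 in tfl1-1. The values were more than 1 unit apart for 2 members in WT (UGT84A3 and UGT87A2), 0 in elf3-7 and 8 in tfl1-1. Those 8 were UGT71C1, UGT72E2, UGT73B1, UGT73C1, UGT76E12, UGT78D1, UGT84A1 and UGT85A5. No share over all probe sets was set beside these counts, so they give no result particular to the UGT family. Signs can also differ close to 0, as for UGT73C2 in WT (0.01 in A and B, -0.01 in C). Without replicate C of tfl1-1 at 23 °C, 11 members were called in tfl1-1 rather than 4, and the share of all probe sets rose from 9.16% to 19.1%.

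**Figure D4:**
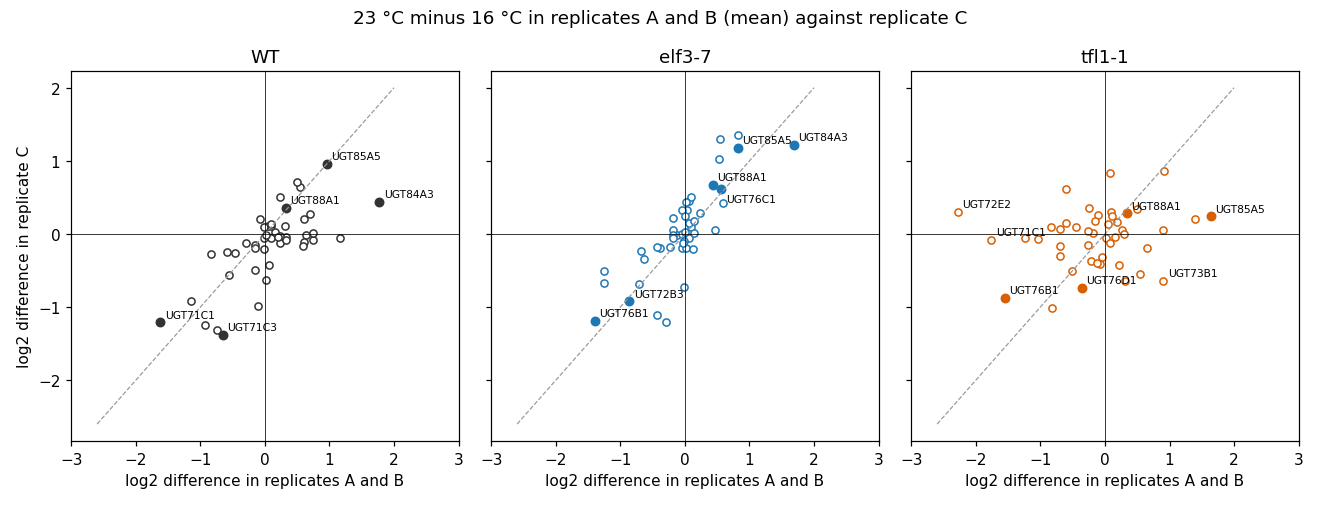
Temperature difference of each UGT gene in replicates A and B (x axis, mean, log2) against replicate C (y axis, log2) in the 3 genotypes, with filled points for called genes and a dashed line of equality. In tfl1-1, UGT72E2 lies at -2.28 in A and B and 0.30 in C, and UGT85A5 at 1.64 and 0.24.

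Comparing each mutant with WT at the same temperature asks whether the alleles alone change UGT expression. No member was called by limma in any of the 4 comparisons. For elf3-7, 0 of 46 were called at 16 °C, where 0.268% of all probe sets were, and 0 at 23 °C, where 0.0308% were. For tfl1-1, 0 were called at 16 °C, where 0% of all probe sets were, and 0 at 23 °C, where 0.0352% were. At an unadjusted p under 0.05 there were 3 members for elf3-7 at 16 °C (UGT88A1, UGT84A4 and UGT71B1) and 3 at 23 °C (UGT88A1, UGT85A2 and UGT85A4), and 2 for tfl1-1 at 16 °C (UGT71C5 and UGT84A3) and 2 at 23 °C (UGT85A5 and UGT76C2). On the whole array 6.8% and 5.17% of probe sets for elf3-7 and 7.55% and 8.46% for tfl1-1 had such a p. The lowest adjusted p among the members in these 4 comparisons were 0.0834, 0.925, 0.629 and 0.539.

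UGT88A1 came closest to a call. Its 16 °C arrays in elf3-7 all lay below those of WT, by 0.41 ± 0.09 on average (difference -0.41, adjusted p = 0.0834), and its 23 °C arrays also did (-0.23 ± 0.09, adjusted p = 0.925). At 16 °C in elf3-7 the members furthest from WT were UGT73B1 (AT4G34138, -0.75 ± 0.48, adjusted p = 0.855) and UGT84A4 (0.68 ± 0.28, adjusted p = 0.664). At 23 °C they were UGT72E2 (0.80 ± 0.52) and UGT71C1 (0.67 ± 0.40, both with adjusted p = 0.976). In tfl1-1 at 16 °C they were UGT84A3 (0.64 ± 0.29) and UGT73B5 (0.58 ± 0.52, adjusted p = 0.827). At 23 °C they were UGT85A5 (0.56 ± 0.22) and UGT76C2 (-0.51 ± 0.21, both with adjusted p = 0.539). Without replicate C of tfl1-1 at 23 °C, 3.28% of all probe sets were called in that comparison rather than 0.0352%, and 3 members passed, UGT72E2 (-1.27, adjusted p = 0.0268), UGT76C2 (-0.77, adjusted p = 0.0376) and UGT85A5 (0.89, adjusted p = 0.013). UGT84A3 differed from WT by -0.06 at 16 °C and 0.15 at 23 °C in elf3-7 and by 0.20 at 23 °C in tfl1-1, each with an SE of 0.29.

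Members whose mutant arrays did not overlap those of WT made up a larger share than on the whole array in elf3-7 and a like or smaller one in tfl1-1, with no test of either. In elf3-7 they were 12 of 46 at 16 °C (26.1%, against 14.7% of all probe sets), 6 higher and 6 lower than WT. At 23 °C they were 7 (15.2%, against 8.69%), 5 higher and 2 lower. In tfl1-1 they were 9 at 16 °C (19.6%, against 19.1%) and 2 at 23 °C (4.3%, against 10.2%). UGT88A1 and UGT76C2 were lower without overlap at both temperatures in elf3-7.

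**Figure D5:**
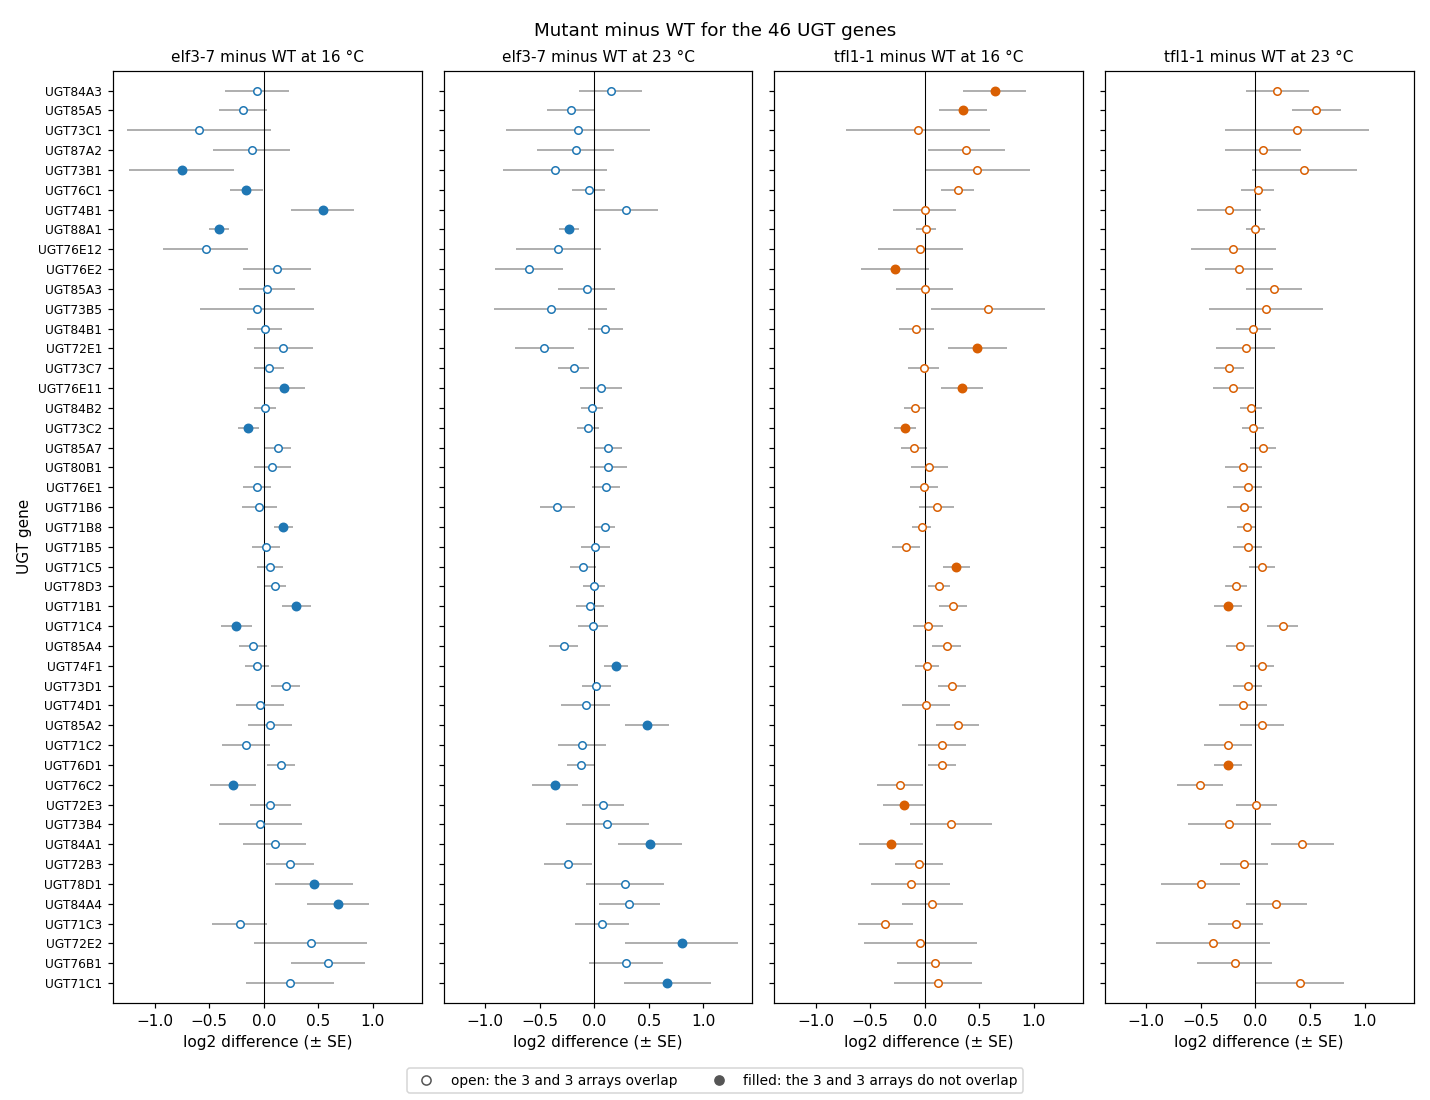
Log2 difference between each mutant and WT (x axis, ± SE) for the 46 UGT genes (y axis, in the order of the temperature plot) at 16 °C and 23 °C, with filled points where the 3 mutant and 3 WT arrays do not overlap. No member was called, and UGT88A1 in elf3-7 lies below 0 at both temperatures.

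The last comparison asks whether the temperature response differs between a mutant and WT. By limma, 0 members were called for elf3-7 (0% of all probe sets) and 0 for tfl1-1 (0% of all probe sets), and 0 and 2 members had an unadjusted p under 0.05, the 2 being UGT71B1 (-0.51 ± 0.18) and UGT76D1 (-0.42 ± 0.19). On the whole array 2.38% and 3.61% of probe sets had such a p. Over the 9 genes called for temperature, the response in elf3-7 differed from that in WT by -0.48 to 0.43, and the lowest unadjusted p was 0.148 (UGT72B3). In tfl1-1 it differed by -0.43 to 0.29, with a lowest unadjusted p of 0.0418 (UGT76D1). For UGT84A3 the differences were 0.21 ± 0.41 and -0.43 ± 0.41. The members furthest from 0 were UGT76E2 (-0.72 ± 0.44) and UGT72E1 (-0.63 ± 0.38) in elf3-7, and UGT84A1 (0.74 ± 0.40) and UGT72E1 (-0.57 ± 0.38) in tfl1-1, all with an adjusted p of 1. A call in one genotype and not in another, as for UGT71C1, UGT72B3, UGT76C1 or UGT76D1, was therefore not shown to be a difference between genotypes.

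Genes that make or use the acceptors of UGTs were taken from 10 lists of 162 genes, of which 15 could be named on the array. The xenobiotic and oxidative response list held the largest changes, in glutathione transferases of the tau class, which conjugate toxins by another route. Of its 20 genes 3 were measured, and 3 fell in WT, 2 in elf3-7 and 3 in tfl1-1. On the whole array 3.98%, 2.32% and 5.18% of probe sets were lower. The lists were chosen with earlier results known, so these 3 genes do not stand for the list. GSTU25 fell by 3.46, 2.8 and 3.43 on the log2 scale (SE 0.57, adjusted p = 0.00544, 0.016 and 0.00382). GSTU22 fell by 2.09 in WT, fell by 1.77 in elf3-7 and fell by 2.11 in tfl1-1 (SE 0.48, adjusted p = 0.0203, 0.0464 and 0.016). GSTU26 fell by 2.27 in WT and fell by 2.45 in tfl1-1 (SE 0.49, adjusted p = 0.0155 and 0.009) and lay at -1.56 in elf3-7 (adjusted p = 0.0759).

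Of the 5 auxin genes measured, GH3.3, which conjugates auxin to amino acids, fell in elf3-7 by 0.97 on the log2 scale (SE 0.18, adjusted p = 0.0094) and lay at -0.47 in WT and 0.10 in tfl1-1. The other 4 were not called. In the phenylpropanoid list only HCT, a hydroxycinnamoyl transferase (0.28, 0.38 and 0.13), and REF1, an aldehyde dehydrogenase of ferulate and sinapate synthesis (0.19, 0.05 and -0.20), were measured. In the salicylic acid list it was SAG101, a partner of EDS1 in immunity (0.08, 0.01 and -0.34). In the abscisic acid list it was BGLU33, a glucosidase that frees abscisic acid from its glucose ester (1.20, 1.13 and -0.76, SE 0.53). ARR15, a cytokinin response regulator, lay at -0.06, -0.17 and -0.18. BCAT4 of glucosinolate synthesis lay at -0.29, -0.37 and -0.76, and USP, which makes UDP-sugars, at -0.18, -0.09 and -0.36. None of these passed, none of the 15 was called between a mutant and WT, and the flavonol and brassinosteroid lists had no gene named here.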

How the data were processed

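The authors deposited log2 expression values per probe set for 18 ATH1 arrays, made with RMA per the submitters' processing notes. Its version and annotation are not stated in the sources used here. RMA had put the arrays on 1 scale, so nothing was normalized again, and it understates changes of dim genes. Tests ran over 22746 probe sets, without the 64 controls. Single genes were named for 13513 probe sets, several for 503 (3 of them with a UGT) and none for 8730, from the platform annotation and RefSeq TAIR10.1, used for names and gene order only.

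With limma 3.58.1 (R 4.3.3), every probe set got a fit of 6 group means over 18 arrays, with empirical Bayes moderation, two-sided tests and Benjamini-Hochberg adjustment within each of 9 comparisons. The arrays carry no depth, so their number limits precision. The labels state that RNA was prepared separately for each sample. The fit was tested on simulated data with independent noise in each array. These had no shift of replicate C, so the test does not cover arrays that vary together.

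The members, the gene lists and the tests were chosen with earlier results of these data known, and the role groups after the values were seen. Named are all called members, UGT84A3, the subfamily and neighbours of called members, the brightest and dimmest 5, the 2 largest differences where none was called, and up to 4 called or 2 other genes of a list. Members outside this rule, such as UGT72E2, were named after their values were seen. The letter of the replicate was taken to pair arrays where all 3 correlations of their deviations from the group means passed 0.1. This held for temperature in WT (0.296 to 0.549) and elf3-7 (0.344 to 0.619) and for both mutants against WT at 23 °C. It did not hold for temperature in tfl1-1 (-0.102 for A) or for the mutants at 16 °C. The group means include replicate C, which stood apart in all 6 groups. Deviations of A and B can thus correlate without pairing, and the rule cannot tell pairing from a shift of C. Replicate C as a block called 14.1% and 13% of all probe sets in WT and elf3-7, beside 13.9% and 12.8% with the letter. Python 3.11.15 with numpy 2.4.6, pandas 2.3.3 and matplotlib 3.10.9 served for tables and plots.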

Additional observations from a re-analysis of the deposited data

How the results depend on the processing

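Called members numbered 5, 6 and 4 for temperature in WT, elf3-7 and tfl1-1, where 6.81%, 4.87% and 9.16% of all probe sets were called. Array weights gave 12, 11 and 17 (15.6%, 19.4% and 31.2% of all probe sets), 2 for elf3-7 against WT at 16 °C (2.36%) and 4 for tfl1-1 against WT at 23 °C (7%). The replicate block gave 7, 7 and 7 (13.9%, 12.8% and 17.6% of all probe sets, against 15.2% of members), and so did replicate C as a block. In tfl1-1, where the letters did not meet the rule used for pairing, the gains were UGT71C1, UGT71C2 and UGT84A3. Replicates A and B alone gave 7, 7 and 13 (11.4%, 4.02% and 21.8%), and 1 for tfl1-1 against WT at 23 °C (0.849%). Fitting only the compared groups gave 6, 3 and 0 (4.24%, 2.63% and 3.48%), and the 24 members with a mean of at least 5 gave 2, 6 and 1 (10.2%, 7.97% and 14.4% of the probe sets as bright). Equal array medians gave 5, 6 and 3 (6.89%, 5.24% and 9.72% of all probe sets). Quantile normalization gave 5, 7 and 3 (6.85%, 5.31% and 8.77%), and an intensity trend 4, 5 and 3 (6.01%, 4.23% and 8.58%). Leaving out 1 array gave 0 to 4 in WT, 1 to 6 in elf3-7 and 1 to 11 in tfl1-1. The share of all probe sets ran from 1.54% to 6.18%, from 0.919% to 7.09% and from 2.17% to 19.1%. For tfl1-1 against WT at 23 °C, leaving out 1 array gave 0 to 3 (0% to 3.28% of all probe sets). In WT the count was 0 without replicate B at 16 °C (1.54%) or A or B at 23 °C (1.86% and 3.34%). It was 1 without C at 16 °C (1.62%) and 3 without C at 23 °C (6.18%). In elf3-7 it was 2 without A or B at 16 °C (1.6% and 1.33%) and 1 without A or C at 23 °C (0.919% and 1.01%). In tfl1-1 it was 11 without C at 23 °C (19.1%) and 1 or 2 without any 1 of the other 5 arrays (2.17% to 5.23%).

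The 15 calls were recomputed 219 times in all, each call in the alternative settings that apply to it. The call was kept in 137 and lost in 82, and the sign turned in 0. All 15 calls were kept under the replicate block, replicate C as a block and array weights, and 10 in replicates A and B alone. With only the compared groups 5 were kept and 10 lost, UGT85A5 in tfl1-1 (adjusted p = 0.0942) and UGT88A1 in elf3-7 (adjusted p = 0.0572) among them. The calls kept without any 1 array were those of UGT85A5 in tfl1-1 and UGT88A1 in elf3-7. With 3 arrays a group, most calls lie near the threshold. The mean over several probe sets of a gene was not run, since no member has more than 1. Signal over background limits the 22 members with a group mean below 4.36.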
